A study of Ailuropoda melanoleuca with 25 samples.

Results

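FXYD2 (ENSAMEG00000003734) and UMOD (ENSAMEG00000008967) are 2 of the 25376 genes in a table of gene expression in 5 tissues of the giant panda. They were taken by their identifiers as a pair of kidney tubule genes, and they were followed through all 25 libraries, with most attention to the 5 kidneys. Messenger RNA of 5 pandas was sequenced, with 1 library each for kidney, heart, liver, lung, and spleen, so the number of a library names the panda. Panda 1 was a female of label age 27 that died of ovarian cancer, and panda 2 was a female of label age 9 whose cause of death is labelled "ileac pssion". Pandas 3 and 4 (female) and panda 5 (male) had the label age 0.5 and died of a coronavirus infection. The labels give no unit of age, and all tissue was taken after death and kept in liquid nitrogen. Age, cause of death, and time of death cannot be told apart. Each kidney was 1 piece of tissue in 1 library, and neither the labels nor the methods say from which zone of the kidney it was cut.

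FXYD2 encodes the gamma subunit of the Na,K-ATPase, a small membrane protein that sits beside the sodium pump and tunes its affinity for ions. The pump of the basolateral membrane drives most solute transport in the renal tubule, and FXYD2 is known from several tubule segments. UMOD encodes uromodulin, a protein of the thick ascending limb of the loop of Henle that is cut from the cell surface, forms filaments, and is the main protein of normal urine. Variants of either gene cause inherited disorders of the human kidney, of magnesium handling for FXYD2 and of the tubule and interstitium for UMOD.

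The unit of the table is FPKM, the fragments on a gene scaled by the length of the gene and the total of the library. Since low values rise in steps of 1 read, the number of reads on each gene could be worked back. The total per library was 13982822 to 17336596 reads on genes in the kidneys and 13149580 to 21383380 over all 25 libraries. The step of FXYD2 gave a gene model of 198 bases and that of UMOD a model of 1932 bases. At equal FPKM, FXYD2 therefore had far fewer reads than UMOD. Intervals from reads cover counting error only.

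FXYD2 was among the most abundant messages of the kidney. Its level was 7068 FPKM in the kidney of panda 1, 9225 in panda 2, 10438 in panda 3, 948 in panda 4, and 7338 in panda 5. The mean was 7003 ± 3658 FPKM (SD, n = 5), and without panda 4 it was 8517 ± 1600 (SD, n = 4). The other 4 values lay within 1.48-fold of each other, far above the kidney of panda 4. Divided by TMM factors, which centre most genes, these 4 spread more widely, from 5756 (panda 1) to 11694 (panda 2), with 1303 in panda 4. By FPKM, FXYD2 ranked 10, 11, 6, and 13 among all genes in the kidneys of pandas 1, 2, 3, and 5, and 166 in the kidney of panda 4. By reads, which are not scaled by gene length, it ranked 40, 44, 30, and 40 in those kidneys, and 661 in the kidney of panda 4.

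UMOD was lower and spread more widely. Its level was 783 FPKM in the kidney of panda 1, 248 in panda 2, 1217 in panda 3, 15.4 in panda 4, and 361 in panda 5. The mean was 525 ± 477 FPKM (SD, n = 5), and without panda 4 it was 652 ± 441 (SD, n = 4). The highest kidney was 78.8-fold above the lowest, and 4.91-fold above the lowest of the other 4. The kidney of panda 4 was again at the bottom, but the kidney of panda 2, the second highest for FXYD2 in FPKM, was the second lowest for UMOD.

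The read numbers show the depth behind these levels. FXYD2 had 19569, 31666, 32999, 3045, and 24506 reads in the kidneys of pandas 1 to 5, and UMOD had 21159, 8300, 37552, 484, and 11778. The counting interval of the lowest value, UMOD in the kidney of panda 4, was 14.1 to 16.9 FPKM (95%, exact Poisson). Neighbours in the order of the kidneys therefore differed by more than counting error, also for FXYD2 in panda 5 (7247 to 7431) and panda 1 (6970 to 7168). With 1 library per kidney, the spread between pieces of the same kidney is unknown.

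**Figure D1:**
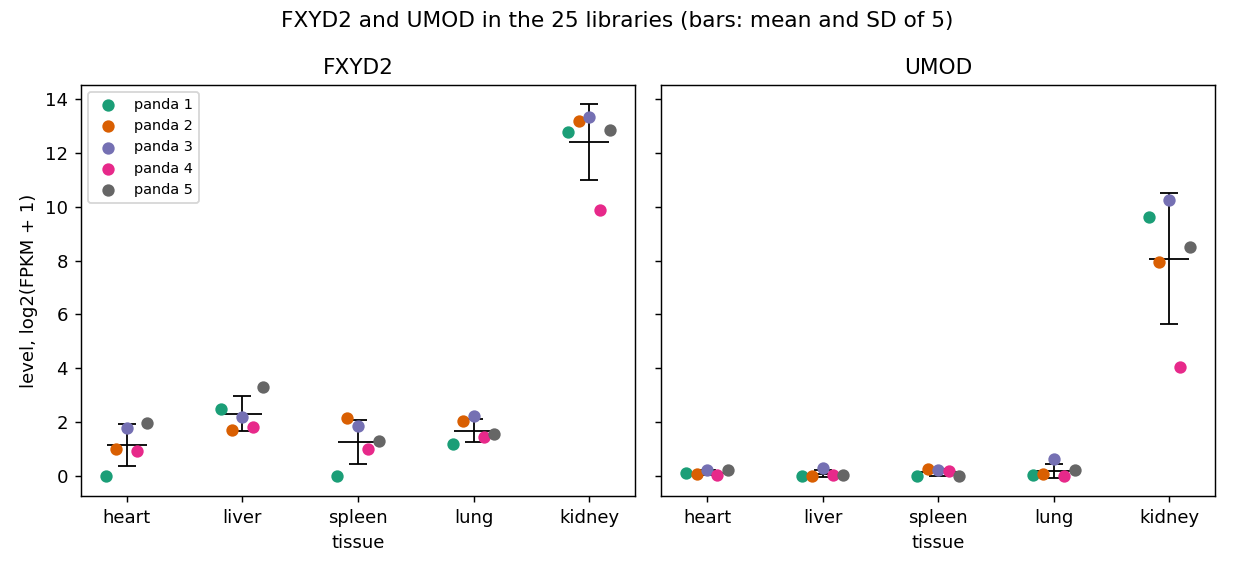
Level of FXYD2 (left) and UMOD (right) as log2(FPKM + 1) in the 25 libraries, with 1 coloured point per panda and the mean and SD of the 5 libraries of a tissue. All kidney points lie above all points of the other tissues, and the kidney of panda 4 is lowest for both genes.

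Outside the kidney both genes were near the limit of detection. FXYD2 reached at most 8.98 FPKM, in the liver of panda 5, and UMOD at most 0.527 FPKM, in the lung of panda 3. The lowest kidney was 106-fold above the highest other library for FXYD2 and 29.3-fold above it for UMOD. On the log2(FPKM + 1) scale the kidney minus another tissue was 10.11 (SE 0.59, liver) to 11.28 (SE 0.58, heart) for FXYD2. For UMOD it was smallest against the lung, at 7.89 (SE 0.87), and of much the same size against the heart, at 7.96 (SE 0.86). Both genes had been picked as kidney genes on these libraries, so these differences are a description without a test.

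FXYD2 was detected at a few reads in most of the other libraries. Its level in the liver was 4.60, 2.25, 3.53, 2.54, and 8.98 FPKM in pandas 1 to 5, from 8 to 38 reads. In the heart it was 0, 0.988, 2.45, 0.904, and 2.85 FPKM, in the spleen 0, 3.38, 2.60, 1.003, and 1.45 FPKM, and in the lung 1.25, 3.07, 3.67, 1.73, and 1.92 FPKM. The values of all 4 tissues overlapped, and the liver of panda 5 stood above the rest, with a counting interval of 6.35 to 12.3 FPKM. The 0 in panda 1 allows up to 0.889 FPKM in the heart and 1.11 FPKM in the spleen when the limit is taken as 3 reads, and up to 1.09 and 1.36 FPKM by the 95% Poisson interval.

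The liver had the highest mean of FXYD2 outside the kidney. FXYD2 was higher in the liver than in the heart by 1.17 log2 units in size (heart minus liver -1.17, SE 0.42, adjusted p = 0.0397, limma), and it was higher in the liver of 5 of 5 pandas. It was higher in the liver than in the spleen by 1.05 log2 units (SE 0.42, adjusted p = 0.0385, limma), in 4 of 5 pandas. With the panda as a block the second call was lost (adjusted p = 0.0505). Such calls were common, at 41.7% of the genes tested between heart and liver and 76.4% between liver and spleen. The other 4 pairs did not pass, with adjusted p values of 0.118 (liver and lung) to 0.793 (heart and spleen, limma). There the share of all genes called was 74.2% for liver and lung, 82% for heart and spleen, 80.9% for heart and lung, and 28.9% for spleen and lung.

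Both calls depended on choices at this depth. Without the filter on low values neither passed (adjusted p = 0.0661 and 0.0584), and without the liver of panda 5 neither passed (0.0943 and 0.0952). Both were also lost without the liver of panda 1 (0.0709 and 0.0677). The call against the heart was lost without the heart of panda 1, 2, or 4, and that against the spleen without the spleen of panda 1, 4, or 5, with adjusted p values of 0.0624 to 0.103. The median gene differed by -1.29 log2 units between liver and spleen and by -1.28 between liver and lung, so FXYD2 ran against most genes there. With TMM factors, which centre most genes, the liver exceeded the spleen by 2.17 and the lung by 1.92 (adjusted p = 0.00115 and 0.00148).

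UMOD outside the kidney was a matter of single reads. It had 58 reads in 20 libraries together, with 0 reads in 5 of them and more than 3 in 8. The largest numbers were 14 reads in the lung of panda 3 and 8 in the liver of panda 3. The lung values were 0.0319, 0.0394, 0.527, 0, and 0.164 FPKM in pandas 1 to 5. Panda 3, whose kidney had the highest UMOD, also had the highest FPKM in heart, liver, and lung, and panda 2 had it in the spleen. In the heart this rested on 5 reads, as many as panda 5 had. The gene did not reach a mean of 1 FPKM in any of these tissues and was filtered out of the test. With no filter, limma called it in 0 of 6 pairs, at an adjusted as at an unadjusted p below 0.05, and the lowest adjusted p was 0.398.

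**Figure D2:**
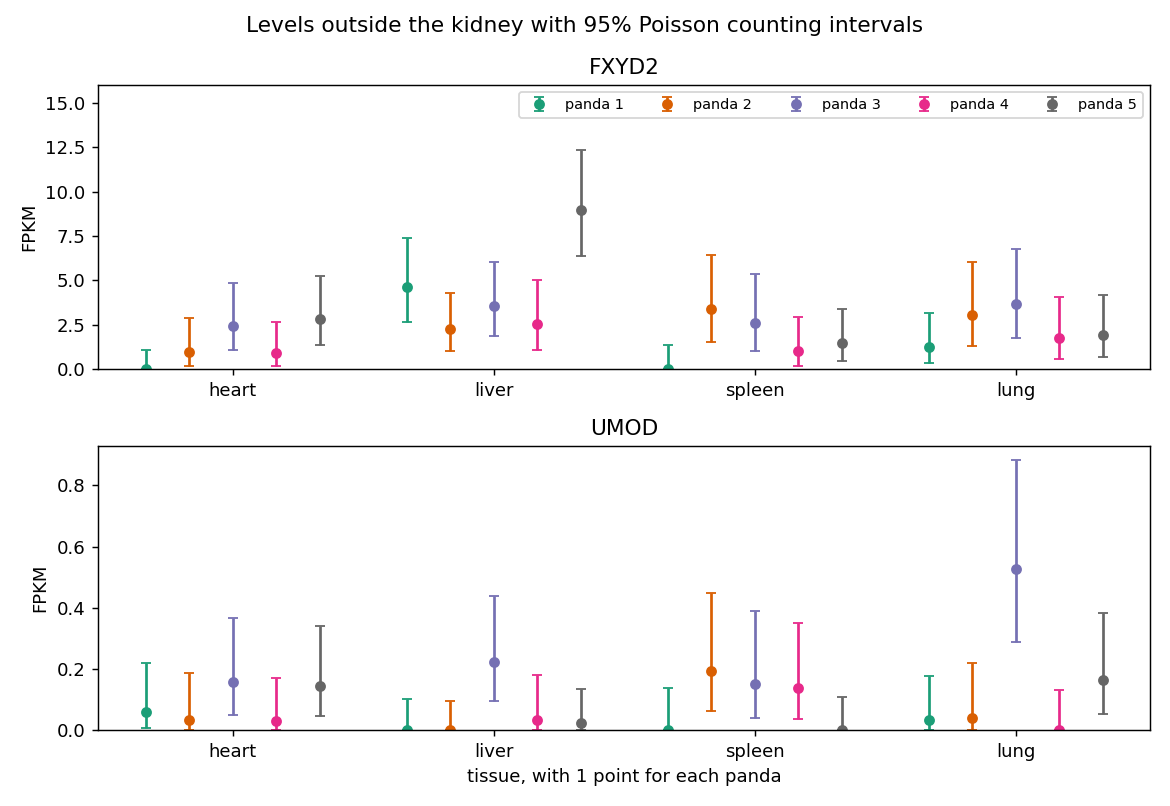
FPKM of FXYD2 (top) and UMOD (bottom) in the heart, liver, spleen, and lung of each panda, with 95% Poisson counting intervals as bars. Most FXYD2 intervals overlap between tissues, the liver of panda 5 is highest, and UMOD stands clearest in the lung of panda 3.

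The relation of the 2 genes differed between kidneys. The FPKM of UMOD divided by that of FXYD2 was 0.111 in panda 1, 0.0269 in panda 2, 0.117 in panda 3, 0.0163 in panda 4, and 0.0493 in panda 5. A scaling of a whole library cannot change this ratio. FXYD2 was 9.02-fold above UMOD in panda 1, 8.57-fold in panda 3, and 20.3-fold in panda 5, but 37.2-fold above it in panda 2 and 61.4-fold in panda 4.

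The ratios of the age groups overlapped. The mean log2 ratio (of FPKM + 1) was -4.43 ± 1.38 (SD, n = 3) in the 3 pandas of age 0.5. It was -5.21 and -3.17 in the 2 older pandas. The difference was -0.24, with p = 0.9 in an exact two-sided permutation test over 10 relabelings, where the smallest p this design allows is 0.1. The lowest and the highest ratio both belonged to young pandas.

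**Figure D3:**
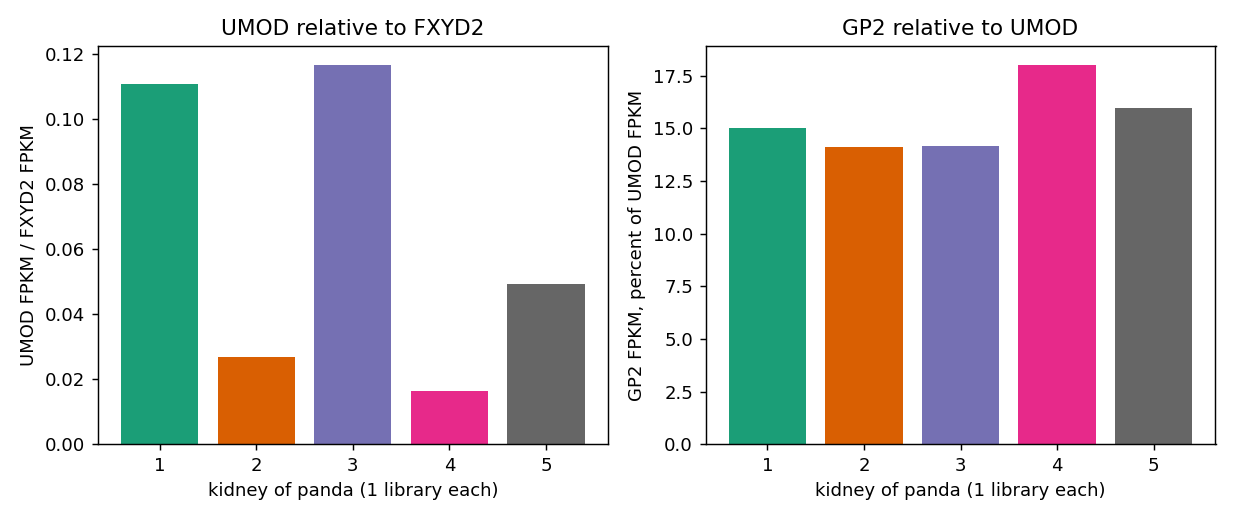
Left, FPKM of UMOD divided by FPKM of FXYD2 in each kidney. Right, FPKM of GP2 in percent of that of UMOD; the first ratio runs from 0.0163 to 0.117, the second only from 14.1% to 18.0%.

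The measured relatives of UMOD were compared next. GP2, a zymogen granule glycoprotein of the same zona pellucida domain family, lies beside UMOD in the RefSeq gene order of the assembly ASM200744v3. It measured 118, 35.0, 172, 2.78, and 57.7 FPKM in the kidneys of pandas 1 to 5. It kept the order of UMOD and amounted to 14.1% to 18.0% of it in every kidney. In the lung, GP2 reached 0.343 to 16.3 FPKM and exceeded UMOD in all 5 libraries. There GP2 was highest in panda 3 (358 reads) and lowest in panda 4 (8 reads), as UMOD was (14 and 0 reads). Reads of such close relatives may be left out or placed on the wrong gene in counting, so the level of GP2 is uncertain. How far this touched the ratio, or UMOD in the lung, was not tested.

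HPN encodes hepsin, the protease that releases uromodulin from the membrane, and it measured 215, 254, 176, 27.5, and 179 FPKM in the 5 kidneys. It was highest in panda 2 and lowest in panda 4. OIT3, a liver gene with the same domain, stayed below 1 FPKM in all 5 kidneys.

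Of the FXYD and Na,K-ATPase family, 3 of 15 listed genes had a name that could be matched, so the pump subunits that FXYD2 joins were mostly not analysed here. FXYD4, a relative of FXYD2 from the collecting duct, measured 194, 55.4, 150, 5.45, and 152 FPKM in the 5 kidneys. In the kidney of panda 2 it was low, as UMOD was and FXYD2 was not.

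The kidney of panda 4 was then set beside gene lists of the nephron. The 6 lists, of the proximal tubule, thick ascending limb, distal convoluted and connecting tubule, principal cell, intercalated cell, and podocyte, held 85 genes. Of these, 66 had a name in the table and 65 had a kidney mean above 1 FPKM. The study gave names only to genes it had called specific to a tissue on these libraries, so the lists are not independent evidence of kidney expression. Of the 66, 59 were called higher in the kidney than in each of the 4 other tissues, where 2.39% of all genes tested were. Of the 65, 63 were lowest in the kidney of panda 4, against 46.9% of all genes. With TMM factors or quantile normalization the count was again 63, against 31.7% and 31.0%.

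FXYD2 was 8.74-fold lower in the kidney of panda 4 than the median of the other 4, and UMOD was 37.1-fold lower. On the log2(FPKM + 1) scale these were differences of -3.13 and -5.12. The median was -2.90 over the 65 nephron genes and -0.54 over all 15173 genes with a kidney mean above 1 FPKM. With TMM factors the differences were -2.50 for FXYD2, -4.46 for UMOD, -2.40 for the nephron genes, and -0.02 for all genes. With quantile normalization they were -3.18, -4.80, -2.50, and -0.03. FXYD2 thus lay at or below the median of the nephron genes, and UMOD well below it.

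All 6 segments were low in that kidney. The medians ran from -2.75 in the proximal tubule (22 of 23 genes lowest in panda 4) to -3.81 in the podocyte list (3 of 3). They were -3.20 for the thick ascending limb (11 of 12), -2.99 for the distal list (9 of 9), -3.05 for the principal cell (4 of 4), and -2.83 for the intercalated cell (14 of 14). AQP1, the water channel of the proximal tubule, measured 1593, 932, 2089, 273, and 1438 FPKM in pandas 1 to 5. PAX8, a transcription factor of the renal epithelium, was 6.30-fold below the median of the other 4 kidneys, and 13 of 14 named kidney transcription factors were lowest there.

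The same library was then set beside the other tissues. In the kidney of panda 4, 51 of the 65 nephron genes were above all 20 libraries of the other tissues, against 63 to 65 in the other kidneys. These genes had names because the study called them specific to a tissue on these libraries. The counts are therefore a description and no test of the labelled tissue. Across 20703 genes it correlated with the other kidneys at 0.886 to 0.922 (Pearson, log2 scale) and with the lung of panda 4 at 0.864. For the other 4 kidneys the highest such value with another tissue was 0.816 to 0.841. Most of the nephron genes were thus detected in this library, at a lower level than in the other kidneys.

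Lists of other cell types were set beside this. Of the leukocyte list, 5 of 10 genes were named, and they summed to 10.3 FPKM in the kidney of panda 4 and to 12.0 to 14.1 in the others. Among them CD3E of the T cell receptor complex was highest in that kidney, at 2.54 FPKM against 0.236 to 1.86. CD79B of the B cell receptor was highest there too, at 1.83 FPKM against 0 to 1.37, as was MS4A1, at 0.138 FPKM against 0 to 0.0701. Of the hepatocyte list, 11 of 12 genes were named, with a sum of 521 FPKM against 624 to 1230. Within that list TF, the transferrin gene, was highest in the kidney of panda 4, at 57.6 FPKM against 17.7 to 21.7, and so was FGG, a fibrinogen chain, at 1.24 FPKM against 0.187 to 1.12. Of the cardiomyocyte list, 9 of 9 were named, with a sum of 19.7 FPKM against 48.0 to 97.0. MYH11 of smooth muscle, the 1 named gene of 8 in its list, measured 14.2 FPKM against 8.04 to 23.9, and no endothelial gene of 6 was named. The part of other cell types in the low level of FXYD2 and UMOD was not tested, and fewer tubule cells cannot be told apart from less messenger RNA per cell. Genes known from tubule injury were named for 5 of 12, and 4 of the 5 were lowest in panda 4. KRT18 measured 27.0 FPKM there against 212 to 282. SPP1, the most abundant of the 5, measured 512 FPKM there, 656 in panda 2, and 6912 to 8697 in the others. CLU was the exception, at 581 FPKM in panda 4 against 400 to 1638, and it was lowest in panda 2.

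**Figure D4:**
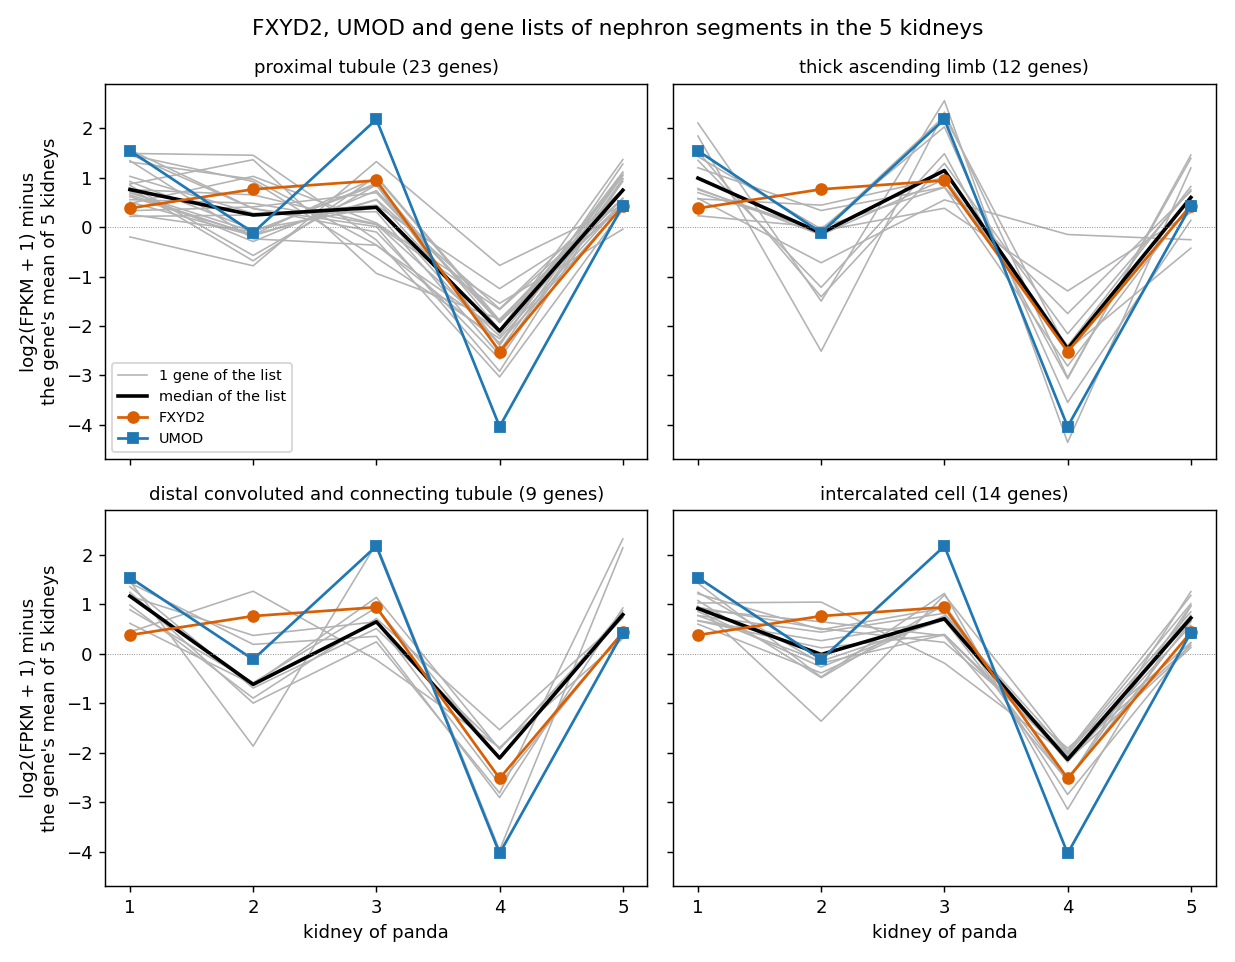
Each panel plots the genes of a nephron list in the kidneys of pandas 1 to 5, as log2(FPKM + 1) minus the gene's own mean over the 5 kidneys. Grey lines are single genes, the black line is their median, and FXYD2 (orange) and UMOD (blue) are repeated in every panel; panda 4 is the low point of nearly all lines, and UMOD but not FXYD2 dips in panda 2.

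The kidney of panda 2 separated the 2 genes. Against the median of pandas 1, 3, and 5, UMOD was 3.16-fold lower there, a difference of -1.66 on the log2 scale, while FXYD2 differed by 0.33. With TMM factors the differences were -1.02 and 0.77, and with quantile normalization -1.88 and -0.10, so the sign for FXYD2 turned with the scaling and that for UMOD did not.

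Several genes of the thick ascending limb and the distal nephron were also low in that kidney, and others were not. SLC12A1, the Na-K-2Cl cotransporter of the thick ascending limb, measured 304, 24.1, 415, 2.47, and 161 FPKM in pandas 1 to 5. CLDN19, a tight junction claudin of the same segment, measured 64.7, 22.8, 98.8, 1.10, and 25.9 FPKM. CALB1, the calcium buffer calbindin of the distal tubule, measured 281, 27.1, 477, 5.55, and 451 FPKM. The first of these was 12.6-fold and the last 16.7-fold below the median of pandas 1, 3, and 5. CALB1 was the farthest below in its list. SLC12A3 of the same list measured 262, 151, 182, 17.9, and 159 FPKM. Its difference in panda 2 was -0.28 on the log2 scale, against -0.45 for the median of all genes. With TMM factors it was 0.36, against 0.06. UMOD was less far below the other kidneys than SLC12A1 was, and their ratio was 10.3 in panda 2 against 2.24 to 2.93 in pandas 1, 3, and 5.

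Other genes were at the level of the other kidneys, or above, in panda 2. MIOX, an inositol-degrading enzyme of the proximal tubule, measured 1192, 1675, 340, 178, and 968 FPKM, and was highest in panda 2. KLK1, the tissue kallikrein of the connecting tubule, was highest there as well, at 179 FPKM against 67.8 to 101 in pandas 1, 3, and 5. MAL, a lipid raft protein placed in the list of the thick ascending limb, measured 628, 575, 845, 77.0, and 570 FPKM and lay as close to the others as FXYD2 did.

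By list, the median difference of panda 2 was -1.13 for the thick ascending limb, -1.42 for the distal convoluted and connecting tubule, -1.30 for the principal cell, -0.71 for both the proximal tubule and the intercalated cell, and -0.45 for all genes. Panda 2 was the lowest of these 4 kidneys for 10 of 12, 8 of 9, 4 of 4, 11 of 23, and 9 of 14 genes, against 57.8% of all genes. The podocyte list, which is not of the tubule, had a median of -1.07, close to that of the thick ascending limb, with 1 of 3 genes lowest in panda 2. With TMM factors the count of the thick ascending limb was 6 of 12 against 32.9%, and its median was -0.54 against 0.06 for all genes. With quantile normalization it was 7 of 12 against 33.9%.

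The spread of the 2 genes was set beside that of other genes. Among 8122 genes with a kidney mean of at least 10 FPKM, the SD of log2(FPKM + 1) over the 5 kidneys was 1.43 for FXYD2, 2.43 for UMOD, and 0.55 for the median gene. Only 17 of these genes had a larger SD than UMOD, and 400 had a larger one than FXYD2. With TMM factors the SDs were 1.21, 2.11, and 0.51. Without the kidney of panda 4, on FPKM unscaled between libraries, they were 0.27, 1.04, and 0.42, with 6374 genes above FXYD2 and 321 above UMOD. On that scale the wide spread of FXYD2 came from that 1 library. With TMM factors FXYD2 was 5756, 11694, 7883, and 6849 in pandas 1, 2, 3, and 5, and its place among all genes without panda 4 was not worked out. Whether FXYD2 was steadier than most genes in these 4 kidneys thus depends on the scaling.

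The genes with the most similar pattern were sought among 561 named genes with a kidney mean of at least 10 FPKM. The measure was the root mean square difference of log2(FPKM + 1) after each gene was centred on its mean, over the 5 kidneys. For FXYD2 the nearest were LOC100474931 (a C-type lectin domain gene, 0.15), SLC22A18 (an organic cation transporter-like gene, 0.16), KRT18 (an epithelial keratin, 0.17), MAL (0.17), and TMEM37 (0.21), and the median gene was at 0.78. For UMOD they were GP2 (0.26), CLDN19 (0.27), TLDC2 (0.39), CLDN8 (a claudin of the distal nephron, 0.59), and SLC6A18 (an amino acid transporter of the proximal tubule, 0.62), and the median gene was at 1.45. At 1.09 from each other, UMOD was in place 400 among the neighbours of FXYD2, and FXYD2 in place 76 among those of UMOD. None of the 5 genes nearest to one was among the 5 nearest to the other.

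**Figure D5:**
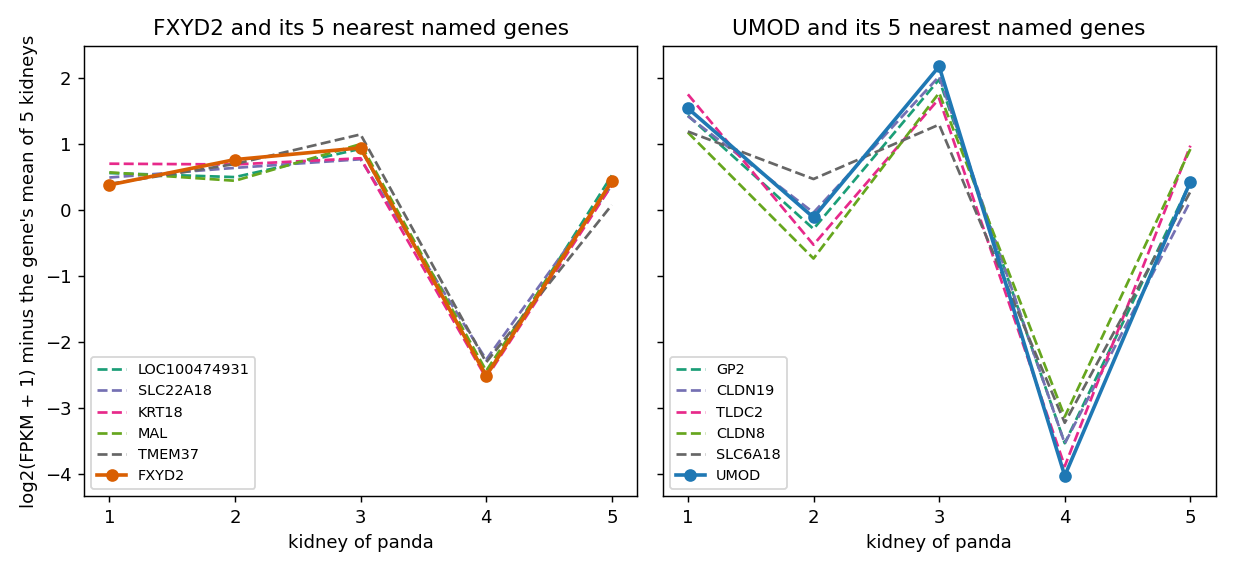
Log2(FPKM + 1) minus the gene's own mean in the kidneys of pandas 1 to 5, for FXYD2 (left) and UMOD (right) as solid lines and their 5 nearest named genes as dashed lines. All genes are lowest in panda 4; those near UMOD are lower in panda 2 than in pandas 1 and 3.

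Over all 25 libraries the likeness is set mostly by the step between the kidney and the rest. There UMOD was the nearest gene to FXYD2 (1.41), followed by SLC5A12, MIOX, TMEM52B, and SLC22A8 (1.45 to 1.504). In the other direction FXYD2 was in place 64 among the neighbours of UMOD. The nearest to UMOD were TMEM52B (0.49), SLC34A1 (0.57), RHCG (0.62), SLC22A8 (0.65), and SLC6A18 (0.66). Of these, SLC34A1, SLC22A8, and SLC6A18 are transporters of the proximal tubule, and RHCG is the ammonia transporter of intercalated cells. The thick ascending limb gene TMEM52B measured 357, 186, 406, 38.4, and 368 FPKM in the 5 kidneys and at most 0.521 FPKM elsewhere.

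The kidneys of the 3 young pandas were compared with those of the 2 older pandas. FXYD2 had a mean of 6241 FPKM in the young and 8147 in the older kidneys, a log2 difference of -0.95 (SE 0.95, adjusted p = 0.987, limma). UMOD had means of 531 and 516 FPKM, with a log2 difference of -1.19 (SE 1.54, adjusted p = 0.987, limma). Its direction thus depended on the scale, with the young mean higher in FPKM and lower on the log2 scale. The groups overlapped for both genes, since in FPKM the highest and the lowest kidney of each were both young. With TMM factors the highest FXYD2 was in an older kidney, that of panda 2 (11694 against 7883 in panda 3). The groups still overlapped, with panda 1 at 5756. Without the kidney of panda 4 both differences changed sign, to 0.12 and 0.59, and neither passed the test.

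Of 15173 genes tested, 0 (0%) had an adjusted p below 0.05 with limma, 456 (3.01%) had an unadjusted p below 0.05, and limma-voom on the recovered reads also called 0. Without the kidney of panda 4, 231 of 15235 genes were called, 8 of the 65 nephron genes and 3 of the 12 of the thick ascending limb among them, but not FXYD2 or UMOD. That fit, of 2 against 2 kidneys, took the spread of each gene almost wholly from the trend over genes (prior degrees of freedom 427 against 5.09). Of the 65 nephron genes, 5 had an unadjusted p below 0.05, and 4 of these were in the proximal tubule list. The median log2 difference was -0.66 over the 65 genes and 0.03 over all genes, and without the kidney of panda 4 it was 0.23 against 0.21. The kidney of panda 4 therefore set the sign of the young-minus-older difference for FXYD2, UMOD, and the median nephron gene.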

How the data were processed

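The authors mapped reads to ailMel1 with HISAT2, added genes from a Cufflinks assembly, counted with HTSeq (union mode), and deposited FPKM per gene and library, unscaled between libraries. The table held 25376 genes in 25 libraries. Names came from the study's list of 1778 tissue-specific genes, read from page images; 1 entry, FXRD4, was read as FXYD4. Whole reads were recovered within 0.05 reads for 24207 of 24207 genes above 0, taking the smallest numbers that gave every value; this scale sets the totals, so depth is an estimate. Tests used log2(FPKM + 1) in limma (version 3.58.1, R 4.3.3) with a variance trend and Benjamini-Hochberg adjustment over all genes tested, and genes with a mean above 1 FPKM in a tissue compared, or over the 5 kidneys. A gene was called higher in the kidney at an adjusted p below 0.05 and a log2 difference above 2 against each other tissue, and other calls had no fold limit. The fits were tested on simulated data. The ratio of UMOD to FXYD2 was tested by exact permutation.

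Libraries with the same number share a panda in the labels, and after tissue means were removed they correlated at 0.0600 to 0.521 (49 of 50 pairs above 0.1). Over the 15173 genes with a kidney mean above 1 FPKM, kidney libraries correlated pairwise (log2 scale) at 0.828 to 0.963, and none repeated another. With 1 library per panda and tissue, the p-values rest on the spread between libraries. In it, animal, piece of tissue, and counting error cannot be told apart. Limma also drew on the spread of other genes, and the main tissue fits had no block for the panda.

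The alternatives were a pseudocount of 0.1, TMM factors, quantile normalization, no filter, limma-voom on recovered reads, the panda as a block, and each library left out. The members, lists, and tests were chosen with earlier results of these data known. Named were FXYD2 and UMOD, the measured genes of their families, the 4 highest of each other list (some of these are not reported here), and the 5 nearest genes; MS4A1, TF, and FGG were named after their values were seen. Figures used matplotlib 3.10.9.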

Additional observations from a re-analysis of the deposited data

Results flagged for a closer look

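In each group of 5 libraries, the gap from the highest or lowest value to its neighbour was divided by the range on the log2(FPKM + 1) scale and compared with Dixon's critical value of 0.71. Of 64 groups tested, 17 were above it, and chance gives about 1 in 20. That share is no measure for the kidney genes here: they share their libraries, and LOC100474931, SLC22A18, KRT18, MAL, and SLC6A18 were among the genes chosen for a pattern like that of FXYD2 or UMOD, which fixes their low value in panda 4.

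FXYD2 was flagged in the kidney of panda 4, the lowest, at 0.837; the gap of UMOD there was 0.631 and was not flagged. The same library was the lowest for 15 further genes. Of the uromodulin, nephron, and transcription factor lists these were HPN (0.835), MAL (0.835), SLC12A3 (0.791), HSD11B2 (0.814), CA2 (0.747), RHCG (0.847), PAX8 (0.821), SLC5A12 (0.861), and SLC22A8 (0.764). The others were KRT8 (0.807), KRT18 (0.878), MYL3 (0.712), LOC100474931 (0.875), SLC22A18 (0.870), and SLC6A18 (0.775).

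UMOD in the liver of panda 3 was the highest of 5 (0.841), at 8 reads against 0 or 1 in the other livers.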

How the results depend on the processing

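The number of nephron list genes called higher in the kidney, 59 of 66, ranged from 55 to 63 over all alternatives, the replicate block (panda as a block) included, and it ranged from 55 to 63 when 1 library was left out. The comparison of young and older kidneys gave 0 genes under every alternative except without the kidney of panda 4, where it gave 231 (range 0 to 231 over the libraries left out). Of these, 8 were nephron list genes, and FXYD2 and UMOD were not among them. Without the kidney of panda 4 the log2 difference of FXYD2 turned to 0.12 and that of UMOD to 0.59, and with 1 kidney left out they ranged from -1.61 to 0.12 and from -2.52 to 0.59. The ratio of UMOD to FXYD2 ranged from -1.26 to 0.78 with 1 kidney left out, turning without panda 1 (0.78) and panda 4 (0.47).

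FXYD2 passed in 2 of 6 pairs of the other tissues, in 0 with a pseudocount of 0.1, 0 with no filter, 1 with the panda as a block, 3 with TMM factors or quantile normalization (liver and lung added), and 0 to 2 with 1 library left out; 0 remained without the liver of panda 1 or that of panda 5. Heart minus spleen (-0.12) turned to 0.59 with TMM factors and 0.79 with quantile normalization, and ranged from -0.44 to 0.16 with 1 library left out, turning without the heart of panda 1 (0.16) or the spleen of panda 2 (0.09) or 3 (0.02). Heart minus lung (-0.55) turned to 0.34 with TMM factors and 0.56 with quantile normalization.

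The scaling of the kidneys was chosen as an alternative for the list counts after seeing the data, as was leaving out panda 4 for the SDs. At 0 to 38 reads for FXYD2 and 0 to 14 for UMOD outside the kidney, differences between those tissues were at the limit of the depth.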
